A study of Mus musculus with 8 samples.

Results

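Solute carriers are membrane proteins that move ions, sugars, amino acids and organic molecules across cell membranes. The 9 families taken here include carriers of reabsorption and secretion in the kidney. They were taken here as every gene whose symbol is Slc4a, Slc5a, Slc6a, Slc7a, Slc12a, Slc13a, Slc22a, Slc26a or Slc34a followed by a number. The annotation holds 108 such genes. Of these, 107 had a probe on the array, out of 22911 genes with a probe, and 71 were bright enough to be tested, out of 16013 genes tested. The rule reads symbols and uses no measured value.

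The mutant kidneys were those of mouse embryos at embryonic day 14.5 in which a Hoxb7Cre transgene removes Mdm4, an inhibitor of p53. Hoxb7-driven Cre acts in the ureteric bud and the collecting ducts that grow from it, whereas nephron segments come from the surrounding mesenchyme. The wild-type kidneys came from embryos of the same age, and the labels do not say whether they carried the transgene or a floxed allele. Total RNA of whole kidneys was hybridised in 4 pairs of 1 mutant and 1 wild-type RNA, and each pair lay on 2 arrays with the dyes exchanged, which gives n = 4 pairs. Nothing in the labels tells if the kidneys of single or of several embryos went into an RNA, so p-values describe how these pairs vary, partly perhaps for technical reasons. In whole kidneys, fewer cells of a type and less RNA per cell cannot be told apart. Ratios are of mutant over wild type on the log2 scale, errors are standard errors from limma's fit over all genes, and levels are normalised log2 intensities.

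All 8 arrays lay on 1 slide, with 60.7% to 70.2% of spots well above background in a channel and 0 saturated spots. Precision is limited by the small number of arrays: the carriers had a median standard error of 0.08, and all genes one of 0.07. Mdm4 itself gave -0.03, -0.06, -0.28 and -0.35 in pairs 1 to 4. The mean of 4 Y-linked genes was 2.76, 1.31, -1.64 and 2.83, so that these transcripts were higher in the mutant RNA of pairs 1, 2 and 4 and lower in that of pair 3. The arrays did not repeat each other closely. Across genes, the ratios of the 2 arrays of a pair correlated at 0.23 to 0.60, those of different pairs in the same dye orientation at -0.016 to 0.46, and those of different pairs in opposite orientations at -0.34 to 0.13.

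The nephron is divided into segments with carriers of their own. The proximal tubule takes back glucose, phosphate, sulphate and amino acids through sodium-coupled carriers of its apical membrane and passes them to the blood through basolateral carriers, which also bring in organic anions and cations for secretion. The thick ascending limb and the distal tubule take up sodium chloride through Slc12 cotransporters, and intercalated cells of the collecting duct exchange chloride for bicarbonate through Slc4 and Slc26 proteins. At this age the first nephrons are still forming, and carriers serve as late markers of their segments. Each carrier was assigned to a site from textbook knowledge, and 18 of the 107 were given none.

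Carriers of many organs were measured more often than those of one segment. All 16 broadly expressed carriers and all 3 osmolyte carriers were tested. Of the proximal tubule carriers, 12 of 20 apical and 10 of 13 basolateral ones were tested. The count was 3 of 4 for the loop and distal tubule, 5 of 6 for intercalated cells, 9 of 17 for nerve and muscle and 3 of 10 for other organs. By family, it was 9 of 10 for Slc4, 6 of 11 for Slc5, 8 of 18 for Slc6, 12 of 15 for Slc7, 8 of 9 for Slc12, 5 of 5 for Slc13, 15 of 25 for Slc22, 7 of 11 for Slc26 and 1 of 3 for Slc34. In all, 71 of 107 carriers (66.4%) were tested, against 69.9% of all genes with a probe.

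Of the 36 carriers left out, 20 were well above background in none of the 16 channels. Slc12a3, the thiazide-sensitive cotransporter that defines the distal convoluted tubule, was one of them. So were Slc5a12, a lactate carrier, and Slc7a13, Slc22a7 and Slc22a19 of the mature proximal tubule, as well as the noradrenaline carrier Slc6a2 and the glycine carrier Slc6a5. Slc26a4, the chloride-bicarbonate exchanger pendrin of beta-intercalated cells, was above background in 4 mutant and 2 wild-type channels of 8 each. Slc6a19, the main neutral amino acid carrier of the brush border, was above it in 3 mutant and 3 wild-type channels, and the phosphate carrier Slc34a3 in 5 mutant and 3 wild-type channels.

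Some of the untested carriers were above background on the mutant side alone. Slc5a1, the glucose cotransporter SGLT1, was above it in 3 mutant and 0 wild-type channels. Its mean signal was 1.12-fold higher in mutant kidneys (means 6.76 in mutant and 6.60 in wild-type kidneys). Its ratios were -0.15, -0.06, 0.23 and 0.63 in pairs 1 to 4, so the sign changed between pairs. The choline carrier Slc5a7 was above it in 5 mutant and 0 wild-type channels. Its mean signal was 1.05-fold higher, with ratios of 0.06, 0.03, 0.07 and 0.15. Slc6a18, a glycine carrier of the brush border, gave 3 mutant and 0 wild-type channels. Its mean signal was 1.07-fold higher, with ratios of 0.09, -0.01, 0.07 and 0.22. In these 3 the wild-type probe's own signal lay above the dimmest signal called above background on every array. The folds are thus ratios of the means and not lower bounds. None was tested.

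Pair 4 stood apart for several of the untested carriers, which were picked out after their values were seen. Slc26a4 had levels of 6.59, 6.72, 6.64 and 11.9 in mutant kidneys, against 6.75, 6.71, 6.66 and 7.99 in wild-type kidneys. Its ratios were -0.16, 0.0089, -0.01 and 3.87, and that of pair 4 was 3.85 with mutant RNA in Cy5 and 3.89 with mutant RNA in Cy3. The lactate and monocarboxylate carrier Slc5a8, above background in 5 mutant and 1 wild-type channels, gave 0.11, -0.13, 0.12 and 2.29. In pair 4 it was 2.11 with mutant RNA in Cy5 and 2.47 with mutant RNA in Cy3. The ratio of pair 4 was also the highest of the 4 for Slc5a1 (0.63), the amino acid carrier Slc6a14 (0.74) and the phosphate carrier Slc34a2 (0.52). These ratios come from 1 pair of RNAs, and the filter, which asks for 6 channels of a genotype, kept the 5 genes out of the test.

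No carrier passed the test. At an adjusted p under 0.05, limma called 0 of 71 carriers and 0 of 16013 genes (0%). At an unadjusted p under 0.05, 4 carriers (5.63%) were higher in mutant kidneys, against 7.01% of all genes, and 2 (2.82%) were lower, against 3.6% of all genes. In all 4 pairs 8 carriers (11.3%) were higher, against 12.1% of all genes, and 2 (2.82%) were lower, against 7.84%. The carriers therefore passed these lines at shares near or below those of the array. Their median was 0.02, against 0.01 for all genes, and their range was -0.49 to 0.40. Means within 0.1 of 0 were found for 52 carriers (73.2%), against 63.1% of all genes.

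**Figure D1:**
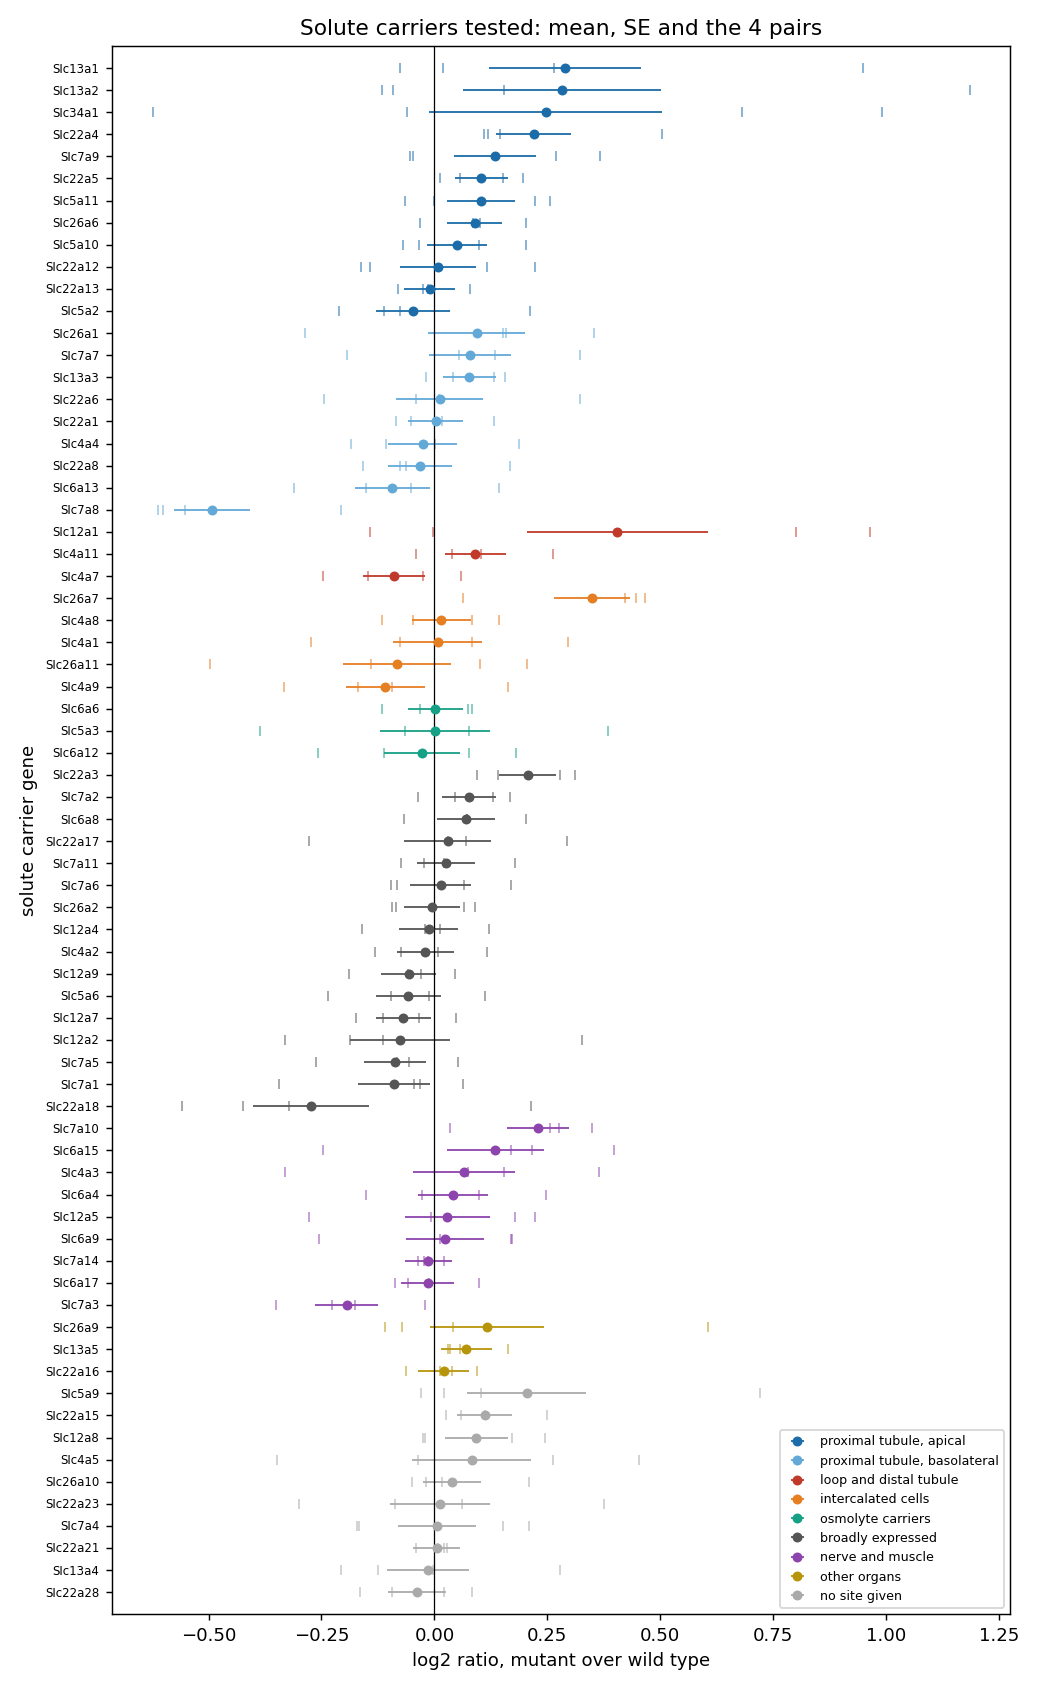
Log2 ratio of mutant over wild type (horizontal axis) for 70 of the 71 tested carriers, one row each, coloured by site and ordered by mean within a site. Points are means, bars standard errors from limma's fit (n = 4 pairs) and ticks the single pairs. Slc7a8 lies lowest at -0.49 and Slc12a1 highest at 0.40, and the ticks of Slc13a1, Slc13a2, Slc34a1 and Slc12a1 spread widest.

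Above 0 stood 46 carriers (64.8%), against 53.9% of all genes. Without pair 3 it was 34 carriers (47.9%), against 51.6% of all genes. With pair 1, 2 or 4 left out, the share of carriers stayed above that of all genes. With each pair centred on all genes it was 52.1%, against 48.8%. Among genes above background in all channels it was 58.6%, against 53.8%. None of the 71 carriers kept 1 sign on all 8 arrays, and only 745 of 16013 genes did, a small share. When each array was centred on its median in place of loess, 57 carriers (80.3%) and 81.8% of all genes stood above 0, so the sign of a mean near 0 goes with the scaling. That centring moved the median of all genes to 0.14 and that of the carriers to 0.09. The family medians were 0.0073 for Slc4, 0.03 for Slc5, 0.01 for Slc6, 0.01 for Slc7, 0.0079 for Slc12, 0.08 for Slc13, 0.01 for Slc22 and 0.09 for Slc26. Slc34 was represented by Slc34a1 alone.

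Among the basolateral carriers of the proximal tubule, Slc7a8 was furthest below 0. Slc7a8 is the light chain LAT2 of a neutral amino acid exchanger, on chromosome 14. Its level was 9.13, 9.28, 9.23 and 9.11 in mutant kidneys of pairs 1 to 4, against 9.73, 9.89, 9.43 and 9.67 in wild-type kidneys. All 4 mutant levels lay below all 4 wild-type levels. The log2 ratios were -0.60, -0.61, -0.21 and -0.55, with a mean of -0.49 ± 0.08 (0.711-fold), and limma's adjusted p was 0.299, the smallest of the carriers. The mean was -0.71 where the mutant RNA carried Cy5 and -0.27 where it carried Cy3. A second Slc7a8 probe was above background in 1 wild-type channel and in no mutant one, and was not tested.

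The other 9 basolateral carriers lay between -0.09 and 0.09, and the median of all 10 was 0.0072. Slc4a4, the bicarbonate cotransporter NBCe1, gave -0.11, -0.18, 0.00034 and 0.19. Slc22a6, the organic anion carrier OAT1, gave 0.01, -0.24, 0.32 and -0.04, and its relative Slc22a8 (OAT3) gave -0.16, -0.06, 0.17 and -0.08. All 3 changed sign between pairs. Slc13a3, which carries dicarboxylates, averaged 0.08 ± 0.06, and Slc7a7, the light chain of the dibasic amino acid exchanger, 0.08 ± 0.09.

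The apical carriers of the proximal tubule had a median of 0.10, with 10 of 12 above 0, against 53.9% of all genes. Slc13a1 and Slc22a12, both among those above 0, passed the filter through mutant channels alone, which favours that sign. Slc22a4, the ergothioneine and organic cation carrier OCTN1, had levels of 6.96, 6.93, 6.94 and 7.28 in mutant kidneys, against 6.85, 6.81, 6.79 and 6.78 in wild-type kidneys, without overlap. Its ratios were 0.11, 0.12, 0.15 and 0.50 (mean 0.22 ± 0.08, adjusted p = 0.453). Without pair 4 the mean was 0.13. Slc22a5, the carnitine carrier OCTN2, was above 0 in all pairs (0.01, 0.06, 0.15 and 0.20) with a mean of 0.10 ± 0.06. A second kept Slc22a5 probe changed sign between pairs (0.11, -0.09, 0.03 and -0.08). Slc7a9, the cystine carrier, gave -0.06, -0.05, 0.37 and 0.27 (mean 0.13 ± 0.09), and Slc5a2, the glucose cotransporter SGLT2, -0.11, -0.21, 0.21 and -0.08 (mean -0.05 ± 0.08).

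The 3 apical carriers with the highest means were those that varied most between pairs. Slc34a1, the phosphate cotransporter NaPi-IIa, had levels of 8.61, 7.75, 7.77 and 7.89 in mutant kidneys, against 8.67, 8.37, 6.78 and 7.21 in wild-type kidneys. The wild-type levels of pairs 3 and 4 were the lowest of the 8, and the groups overlapped. Its ratios were -0.06, -0.62, 0.99 and 0.68 (mean 0.25 ± 0.26, adjusted p = 0.735), and the mean without pair 3 was -0.0013. A second kept probe gave 0.13, -0.19, 0.40 and 0.07. Slc13a1, the sulphate cotransporter, gave 0.02, -0.08, 0.27 and 0.95 (mean 0.29 ± 0.17), and 0.07 without pair 4. It was above background in 6 mutant and 3 wild-type channels. Slc13a2, a dicarboxylate and citrate carrier, gave -0.12, -0.09, 0.15 and 1.18 (mean 0.28 ± 0.22), and -0.018 without pair 4. It was above background in 6 mutant and 6 wild-type channels.

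In the loop and distal tubule, Slc12a1 had the highest mean of the tested carriers. Slc12a1 is NKCC2, the furosemide-sensitive cotransporter of the thick ascending limb. Its levels were 8.28, 8.03, 7.99 and 7.88 in mutant kidneys, against 8.42, 8.03, 7.03 and 7.08 in wild-type kidneys. The mutant levels stayed close together, whereas the wild-type levels of pairs 3 and 4 lay well below the other 6. The ratios were -0.14, -0.0030, 0.97 and 0.80, with a mean of 0.40 ± 0.20 (adjusted p = 0.527), which was 0.22 without pair 3 and 0.27 without pair 4. The mean was 1.00 in Agilent's own log ratio and 0.59 without background subtraction, both without the offset added here. The reason for the difference was not tested. Slc4a11 averaged 0.09 ± 0.07 and the bicarbonate cotransporter Slc4a7 -0.09 ± 0.07.

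Several genes that are not carriers had the same order of pairs, and their likeness was seen in the values before they were chosen from the partner list. Hnf4a, a transcription factor that drives proximal differentiation, gave -0.03, -0.30, 0.79 and 0.55. Pdzk1, a brush border scaffold, gave -0.12, -0.64, 1.06 and 0.44, and Cltrn, which brings Slc6a19 to the membrane, -0.21, -0.42, 0.71 and 0.58. In each, pairs 3 and 4 stood above pairs 1 and 2. That order held for 12 of the 22 proximal carriers (54.5%) and 27 of all 71 (38%), against 28.3% of all genes, a count made after the values were seen. The 16 measured proximal tubule markers had medians of 0.10, -0.08, 0.36 and 0.37 by pair. Of these markers, 15 of 16 had means above 0, against 53.9% of all genes, and Fbp1 passed the filter through mutant channels alone. Their mean level was 9.15 to 9.48 in mutant kidneys and 8.73 to 9.37 in wild-type kidneys. The part of these markers in the carrier values was not tested.

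**Figure D2:**
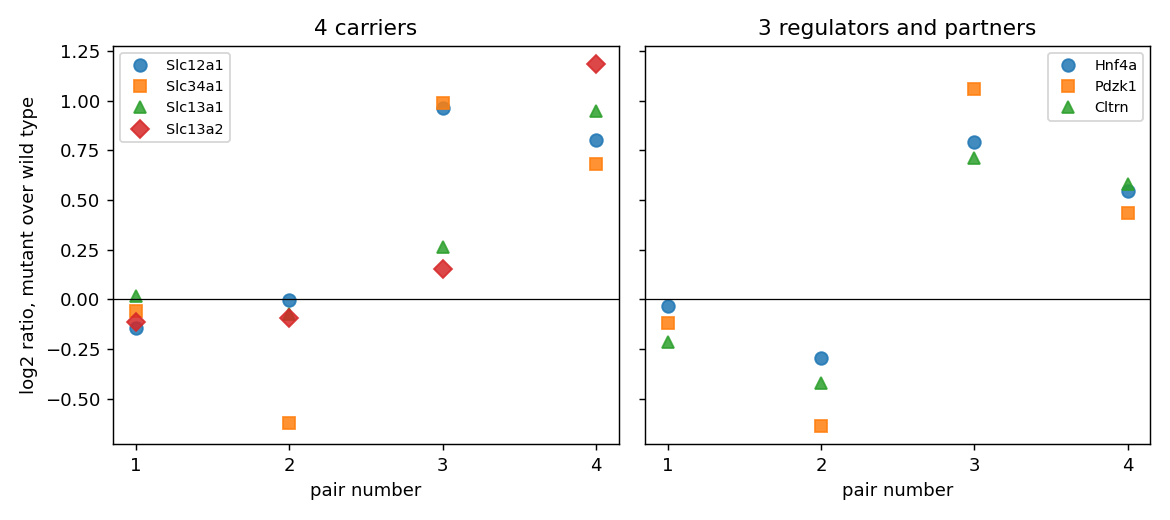
Log2 ratio of mutant over wild type (vertical axis) by pair number for Slc12a1, Slc34a1, Slc13a1 and Slc13a2 (left) and for Hnf4a, Pdzk1 and Cltrn (right), 1 point per gene and pair. Slc12a1 and Slc34a1 are at 0.97 and 0.99 in pair 3 and at or below 0 in pairs 1 and 2, and in the 3 genes on the right pairs 3 and 4 also stand above pairs 1 and 2.

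RefSeq promoter windows (GRCm38.p6, from 250 bases before to 50 after a start) were searched on both strands for a half-site of p53, whose inhibitor is removed in the mutant. The motif was chosen after the values were seen. Windows were found for 51 of the 71 tested carriers. The half-site occurred in 3 of 28 windows of proximal carriers (10.7%), in 4 of 77 windows of all tested carriers (5.19%) and in 8.36% of all 32851 windows. The part before the start is printed for Slc7a8, the tested carrier furthest from 0, for Slc34a1, whose ratios varied most among those tested, and for Slc22a8, which holds a match. Capitals mark the match. Slc22a8 holds it near the 5′ end, and neither Slc7a8 nor Slc34a1 holds one. The windows are chr14:54781887-54782136 (minus strand) for Slc7a8, chr13:55399398-55399647 (plus) for Slc34a1 and chr19:8592932-8593181 (plus) for Slc22a8.
Slc7a8: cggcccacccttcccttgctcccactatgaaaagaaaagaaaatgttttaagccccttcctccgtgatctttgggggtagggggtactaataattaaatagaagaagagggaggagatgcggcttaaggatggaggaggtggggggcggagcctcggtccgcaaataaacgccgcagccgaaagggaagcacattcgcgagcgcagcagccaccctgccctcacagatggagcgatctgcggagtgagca
Slc34a1: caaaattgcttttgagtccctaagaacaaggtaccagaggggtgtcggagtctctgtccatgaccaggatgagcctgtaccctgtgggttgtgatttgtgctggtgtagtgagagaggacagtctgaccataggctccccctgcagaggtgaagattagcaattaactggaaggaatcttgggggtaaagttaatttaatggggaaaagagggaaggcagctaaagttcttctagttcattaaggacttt
Slc22a8: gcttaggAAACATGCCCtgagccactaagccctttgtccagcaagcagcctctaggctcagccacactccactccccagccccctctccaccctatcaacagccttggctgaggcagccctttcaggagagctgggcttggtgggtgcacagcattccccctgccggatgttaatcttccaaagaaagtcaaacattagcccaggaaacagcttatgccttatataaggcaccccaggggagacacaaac

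Among the carriers of intercalated cells, Slc26a7 stood highest. Slc26a7 is a chloride-bicarbonate exchanger of the basolateral membrane of alpha-intercalated cells. Its levels were 8.22, 8.13, 7.93 and 8.23 in mutant kidneys, against 7.78, 7.66, 7.87 and 7.81 in wild-type kidneys, without overlap. The ratios were 0.45, 0.47, 0.06 and 0.42, with a mean of 0.35 ± 0.08 (1.27-fold, adjusted p = 0.397). A second kept probe gave 0.34, 0.34, 0.30 and 0.60. The mean was 0.54 with mutant RNA in Cy5 and 0.15 with mutant RNA in Cy3.

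The other 4 intercalated carriers lay between -0.11 and 0.02. Slc4a1, the anion exchanger AE1, which red cells carry too, gave 0.29, -0.27, 0.08 and -0.08, and the median of 7 red cell markers was 0.20, -0.18, 0.03 and 0.03 in the same pairs. The mean level of those markers was 12.4 to 12.8 in mutant kidneys and 12.5 to 12.6 in wild-type kidneys, and their part in the Slc4a1 values was not tested. Slc4a9, the exchanger AE4 of beta-intercalated cells, averaged -0.11 ± 0.09, and Slc26a11 -0.08 ± 0.12. The 12 measured collecting duct markers had medians of -0.66, -0.34, 0.07 and -0.47 by pair. All 12 had means below 0, against 7384 of the 16013 genes tested, and Scnn1b passed the filter through wild-type channels alone. Their mean level was 11.1 to 11.5 in mutant kidneys and 11.3 to 11.9 in wild-type kidneys. On its main probe Slc26a7 was thus highest in the 3 pairs where those markers stood below 0. On the second Slc26a7 probe, pair 3 (0.30) lay near pairs 1 and 2 (0.34 in each). The part of the markers in the Slc26a7 values was not tested.

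**Figure D3:**
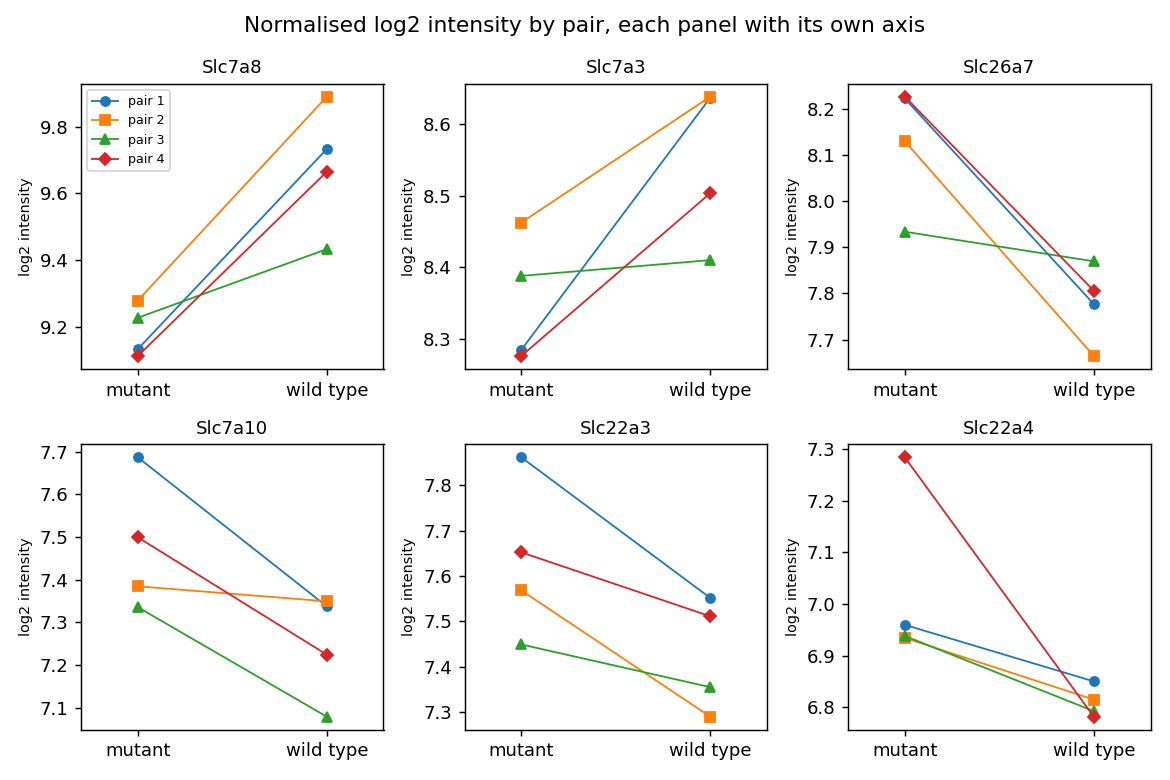
Normalised log2 intensity (vertical axis, its own range in each panel) in mutant and wild-type kidneys for the 6 carriers with an unadjusted p under 0.05, lines joining the 2 RNAs of a pair. Slc7a8 and Slc7a3 are lower and the other 4 higher in the mutant of every pair, with the smallest difference of Slc7a8, Slc7a3 and Slc26a7 in pair 3.

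The osmolyte carriers, which load cells of the inner medulla with inositol, taurine and betaine, stayed near 0. Slc5a3, the inositol carrier, gave 0.38, -0.07, -0.38 and 0.08 (mean 0.0021 ± 0.12). Its mean was 0.49 with mutant RNA in Cy5 and -0.49 with mutant RNA in Cy3. The taurine carrier Slc6a6 gave -0.27 with mutant RNA in Cy5 and 0.28 with mutant RNA in Cy3, and averaged 0.0022 ± 0.06. The betaine carrier Slc6a12 averaged -0.03 ± 0.09. For Slc5a3 and Slc6a6 the difference between dye orientations was thus far larger than the mean ratio.

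The broadly expressed carriers and the osmolyte carriers together had a median of -0.013, with 8 of 19 above 0, against 53.9% of all genes. Slc7a11, among those above 0, passed the filter through mutant channels alone (7 mutant and 5 wild-type). Slc6a12, among those below 0, passed it through wild-type channels alone (5 mutant and 6 wild-type). Passing through 1 genotype favours the sign found. Slc22a3, the organic cation carrier OCT3, had levels of 7.86, 7.57, 7.45 and 7.65 in mutant kidneys, against 7.55, 7.29, 7.35 and 7.51 in wild-type kidneys. The groups overlapped, but the mutant was higher within each pair, by 0.31, 0.28, 0.09 and 0.14 (mean 0.21 ± 0.06, adjusted p = 0.424). Slc22a18, an imprinted gene for an organic cation carrier, gave -0.42, -0.32, 0.21 and -0.56 (mean -0.27 ± 0.13, adjusted p = 0.513), and the mean without pair 3 was -0.44. A second kept Slc22a18 probe gave -0.17, -0.13, -0.04 and -0.27, below 0 in every pair. Slc12a2, the cotransporter NKCC1, gave -0.33, -0.11, -0.19 and 0.33. The amino acid light chain Slc7a5 (LAT1) averaged -0.09 ± 0.07 and the cystine exchanger Slc7a11 0.03 ± 0.06.

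The nerve and muscle carriers had a median of 0.03, with 6 of 9 above 0, against 53.9% of all genes. Slc7a10, the light chain Asc-1 for small neutral amino acids, had levels of 7.69, 7.38, 7.34 and 7.50 in mutant kidneys, against 7.34, 7.35, 7.08 and 7.22 in wild-type kidneys. The lowest mutant level lay just under the highest wild-type ones. The ratios were 0.35, 0.04, 0.26 and 0.28 (mean 0.23 ± 0.07, adjusted p = 0.424). Slc7a3, the cationic amino acid carrier CAT3, lies on the X chromosome. Its levels were 8.29, 8.46, 8.39 and 8.28 in mutant kidneys, against 8.64, 8.64, 8.41 and 8.50 in wild-type kidneys. The groups overlapped. The ratios were -0.35, -0.18, -0.02 and -0.23 (mean -0.19 ± 0.07, adjusted p = 0.442). Xist, the transcript of the inactive X chromosome, gave -2.71, -0.23, 2.48 and -2.80 in the same pairs, and its part in the Slc7a3 values was not tested. Slc6a15, a neutral amino acid carrier of the brain, gave -0.25, 0.17, 0.22 and 0.40. The 11 measured neural markers had a median of 0.04, with 8 above 0, against 53.9% of all genes. Dbh, among those above 0, passed the filter through mutant channels alone, which favours that sign. The mean level of the neural markers was 8.01 to 8.30 in mutant and 7.90 to 8.10 in wild-type kidneys.

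With the pair's difference in Y-linked transcripts as a covariate, the means were 0.24 for Slc26a7, -0.38 for Slc7a8 and -0.12 for Slc7a3, each nearer to 0. Carriers of other organs and those with no site given lay between -0.04 and 0.20. Slc13a5, the citrate carrier of liver, was above 0 in all pairs (mean 0.07 ± 0.06), as was Slc22a15 (mean 0.11 ± 0.06). The mean was 0.09 ± 0.07 for Slc12a8 and 0.02 ± 0.06 for Slc22a16, a carnitine carrier of the testis. Slc5a9 gave 0.02, -0.03, 0.10 and 0.72, and Slc26a9, a chloride carrier of stomach and lung, -0.11, -0.07, 0.04 and 0.60. Both means rested on pair 4 and were 0.03 and -0.05 without it.

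The dye orientation mattered as much for the carriers as for other genes. Opposite signs in the 2 orientations were found for 36 carriers (50.7%) and for 51.3% of all genes. Among the proximal carriers it was 7 of 22 (31.8%), and among the broad and osmolyte carriers 10 of 19 (52.6%). Each orientation had its own row of the slide, so the dye and the position cannot be told apart.

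**Figure D4:**
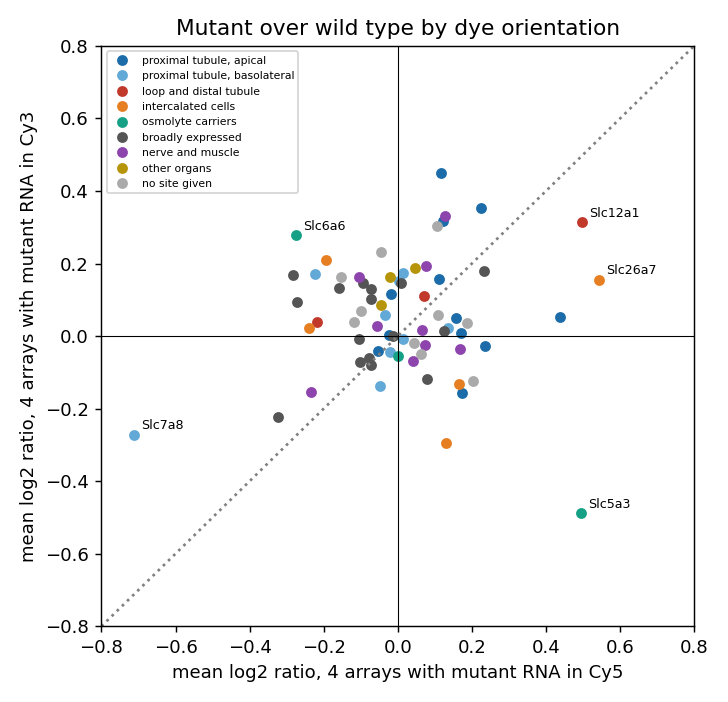
Mean log2 ratio of mutant over wild type over 4 arrays, with mutant RNA in Cy5 (horizontal axis) and with mutant RNA in Cy3 (vertical axis), 1 point for each of 70 tested carriers, coloured by site, with the line of equal values dotted. Slc7a8, Slc26a7 and Slc12a1 keep their sign, and Slc5a3 lies at 0.49 and -0.49.

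Partners and regulators of the carriers were measured for 29 of 32 listed genes, with a median of -0.0038. There were 13 above 0 and 16 below, where 53.9% of all genes were above 0. Hnf4g, among those above 0, passed the filter through mutant channels alone, which favours that sign. None of the 29 passed the adjusted threshold. At an unadjusted p under 0.05, 2 of the 29 were higher and 3 lower, against 7.01% and 3.6% of all genes. Slc3a2, the heavy chain 4F2hc that carries Slc7a8 and Slc7a5 to the membrane, gave -0.12, -0.04, -0.14 and -0.45 (mean -0.19 ± 0.08, adjusted p = 0.486). Slc3a1, the heavy chain of Slc7a9, averaged -0.02 ± 0.05. Car2, the carbonic anhydrase that supplies bicarbonate to the exchangers, averaged 0.27 ± 0.08 (adjusted p = 0.403). Calb1, a calcium-binding protein of the distal tubule and of the ureteric bud, averaged -0.69 ± 0.22 (adjusted p = 0.424). Slc9a3r1, the scaffold NHERF1 that anchors Slc34a1, averaged -0.21 ± 0.06 (adjusted p = 0.424), and Oxsr1, a kinase of Slc12 cotransporters, -0.16 ± 0.06 (adjusted p = 0.442).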

How the data were processed

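The mutant and wild-type RNAs of 4 pairs of kidneys were read on 8 2-colour arrays. The deposited scanner files hold, per the file headers, median spot and background intensity from Agilent Feature Extraction 10.7.3.1, and the submitters' processing notes name 8.5.1.1. The labels name an array format with fewer spots than the 62976 in the files. Agilent's log10 ratio of Cy5 over Cy3, deposited by the authors in the same files and in a series table within 0.005 of them, was an alternative. The direction comes from the dyes in the labels.

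Here, limma 3.58.1 in R 4.3.3 corrected background by normexp with an offset of 50 and normalised each array by loess, control spots and outlier spots at weight 0. Every ratio was set as mutant over wild type, and means were taken over spots of a probe and then over both arrays of a pair. Probes well above background in at least 6 of 8 channels of a genotype were kept (34594 of 56605). Probes were named through RefSeq accessions (GRCm38.p6), and the brightest kept probe stood for a gene. A two-sided lmFit and eBayes test set log2 ratios against 0, p-values were adjusted by Benjamini-Hochberg over 16013 genes, and the threshold was 0.05. The steps were tested on simulated data.

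The text names the 5 carriers with the smallest p in each direction, the 3 of each site, 14 segment-defining carriers and 4 partners, and marks or gives as values a few chosen afterwards (Slc13a2, Slc3a2, Slc3a1, Hnf4a, Pdzk1, Cltrn, Slc7a7, Slc7a11 and untested carriers other than the segment-defining ones). The carriers, lists and sites were chosen with earlier results of these data known. A few genes are not reported here. Alternatives changed the scaling, background, filter, probe choice, dye orientation, pairs, a sex covariate and a replicate block.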

Additional observations from a re-analysis of the deposited data

Results flagged for a closer look

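Among the 44 sets of 4 pair values that were examined, 3 had 1 pair far from the others by Dixon's test, and chance flags about 1 in 20. Slc22a4 stood at 0.50 in pair 4, against 0.15 in the nearest other pair. Slc26a7 stood at 0.064 in pair 3, against 0.42 in the nearest other pair, and its second probe gave 0.30 there. Slc7a8 stood at -0.21 in pair 3, against -0.55 in the nearest other pair. In pair 3 the Y-linked transcripts were lower in the mutant RNA (mean -1.64), whereas they were higher in the other 3 pairs, and what this contributes was not tested in single pairs.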

How the results depend on the processing

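No carrier passed the adjusted threshold under any of the 15 alternatives. The smallest adjusted p of a carrier among them was 0.0896, from limma, for Slc6a6. Its mean was 0.0022 over both dye orientations, -0.27 with mutant RNA in Cy5 and 0.28 with mutant RNA in Cy3. The fit with a dye coefficient and the replicate block called 39 genes and 0 carriers, with an adjusted p of 0.101 for Slc7a8 and 0.104 for Slc26a7, and median centring called 42 genes and 0 carriers. Sign counts were not recomputed for the block and the sex covariate, since they do not depend on the model. Signs of small means are the least stable values, and depth in these arrays is signal over background.

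Median centring gave 8 carriers higher and 1 lower at an unadjusted p under 0.05 (against 4 and 2), where 23.6% and 0.575% of all genes passed, 16 higher and 1 lower in all pairs, against 31% and 1.89% of all genes, and medians of 0.094 for all carriers, 0.13 for loop, distal and intercalated, 0.095 for broad and osmolyte and 0.16 for nerve carriers. Agilent's log ratio gave 1 lower at the unadjusted line (2.75% of all genes), 1 lower in all pairs (6.75%) and 0.072 for nerve carriers. The Cy5 arrays gave 9 lower at that line (10% of all genes), 10 lower in all pairs (15.2%) and medians of 0.10 for loop, distal and intercalated, -0.073 for broad and osmolyte and 0.066 for nerve carriers. The Cy3 arrays gave 7 higher (14.3% of all genes) and 0.015 for broad and osmolyte carriers. The sex covariate gave 1 lower (2.73% of all genes) and -0.039 for broad and osmolyte carriers. The cause was not tested.

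With 1 pair left out, the count lower at that line ran from 1 to 3, the count higher in every pair left ran from 10 to 15, the count lower in every pair left ran from 4 to 9, the median of broad and osmolyte carriers ran from -0.029 to 0.0090 and the median of nerve and muscle carriers ran from -0.0099 to 0.036. Of all genes, 1.5% to 5.1% were lower at that line, 16.7% to 23.1% higher and 11.2% to 17.2% lower in every pair left. Among the carriers named by smallest p, by site or as segment-defining, the means that changed sign were these. With median centring, Slc12a2 0.095, Slc22a16 -0.00025, Slc26a11 0.054, Slc4a4 0.10 and Slc4a7 0.077 were found. With Agilent's log ratio, Slc5a2 0.038 was found. With the median of kept probes, Slc6a6 -0.028 was found. On the Cy5 arrays, Slc12a8 -0.046, Slc13a5 -0.021, Slc22a16 -0.046, Slc22a6 -0.034, Slc26a11 0.13, Slc4a1 -0.19 and Slc6a6 -0.27 were found. On the Cy3 arrays, Slc22a5 -0.027, Slc4a4 0.17, Slc4a7 0.040, Slc4a9 0.023 and Slc5a3 -0.49 were found. With each pair centred on all genes, Slc22a6 -0.0014, Slc4a1 -0.0058, Slc5a3 -0.011 and Slc6a6 -0.011 were found. With the sex covariate, Slc22a8 0.051, Slc5a2 0.044, Slc5a3 -0.18 and Slc6a12 0.052 were found. With 1 pair left out, the lowest and highest means were -0.21 to 0.0090 for Slc12a2, -0.0047 to 0.048 for Slc22a16, -0.091 to 0.10 for Slc22a6, -0.10 to 0.0093 for Slc22a8, -0.18 to 0.055 for Slc26a11, -0.046 to 0.19 for Slc26a9, -0.0013 to 0.54 for Slc34a1, -0.088 to 0.10 for Slc4a1, -0.10 to 0.027 for Slc4a4, -0.13 to 0.0073 for Slc5a2, -0.12 to 0.13 for Slc5a3, -0.10 to 0.049 for Slc6a12 and -0.025 to 0.042 for Slc6a6.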
